A study of Arabidopsis thaliana with 17 samples.

Results

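The genes described here are 8 amino acid importer genes of Arabidopsis thaliana: LHT1 (AT5G40780), the amino acid permease genes AAP1 (AT1G58360), AAP2 (AT5G09220), AAP3 (AT1G77380), AAP4 (AT5G63850), AAP5 (AT1G44100) and AAP6 (AT5G49630), and the cationic amino acid transporter gene CAT1 (AT4G21120, symbol AAT1 in RefSeq). They were chosen by locus identifier from the 28642 genes of the table, with no threshold on a value, but with earlier results on the same libraries known. Their levels and changes over time are therefore given as a description, without p-values, and nothing is read from how many of them were called. All 8 were in the table and all 8 passed the filter on low values, an RPKM (read number scaled to gene length and library size) of at least 1 in at least 2 libraries. Their lowest value in any library was 1.71 RPKM, so none passed through a few high libraries alone.

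Messenger RNA was sequenced from hypocotyls, the stem of the seedling, of dark-grown plants. Genotype and plant age are not stated in the sources used here. The pieces were collected 0, 1, 3, 6, 12 or 24 h after a sharp cut, having stayed without light on plates labelled MS-0, the medium on which the plants had also grown. There were 3 libraries at each of 0, 1, 3, 6 and 12 h and 2 at 24 h, and nothing says whether replicates came from separate plant batches. No uncut hypocotyl was held for the same hours, so the cut and the culture cannot be told apart.

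Plants move nitrogen between organs mainly as amino acids, and proton-coupled importers in the plasma membrane bring these into cells from the apoplast, the soil or the transport stream. LHT1 is a high-affinity importer of a broad range of amino acids, known from root uptake and from leaf mesophyll. The AAP proteins differ in substrate range and site: AAP1 serves root uptake and the loading of seeds, AAP2 moves amino acids from xylem to phloem, AAP3 and AAP5 also take basic amino acids, and AAP6 is an importer of xylem parenchyma that also takes aspartate. CAT1 belongs to another family and imports basic amino acids with high affinity when produced in yeast.

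The 3 genes whose course differed most have the following 250 bases before the outermost RefSeq start of the gene (TAIR10.1, written 5′ to 3′ on the strand of the gene). LHT1 and CAT1 are shown because both were low at 0 and 1 h and had the largest rises at 3 h, and AAP2 because it was the member that was lower. Capitals mark a match to a motif searched on both strands.
LHT1, chr5:16323317-16323566, plus strand: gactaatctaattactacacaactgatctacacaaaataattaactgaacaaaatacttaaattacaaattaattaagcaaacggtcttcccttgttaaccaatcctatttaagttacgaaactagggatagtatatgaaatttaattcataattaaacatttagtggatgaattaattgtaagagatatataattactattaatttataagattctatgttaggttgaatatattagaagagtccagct
CAT1, chr4:11269735-11269984, plus strand: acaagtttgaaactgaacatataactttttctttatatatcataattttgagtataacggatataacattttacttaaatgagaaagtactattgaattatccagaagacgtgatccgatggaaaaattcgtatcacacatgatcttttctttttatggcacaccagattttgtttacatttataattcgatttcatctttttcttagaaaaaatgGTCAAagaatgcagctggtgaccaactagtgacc
AAP2, chr5:2865972-2866221, plus strand: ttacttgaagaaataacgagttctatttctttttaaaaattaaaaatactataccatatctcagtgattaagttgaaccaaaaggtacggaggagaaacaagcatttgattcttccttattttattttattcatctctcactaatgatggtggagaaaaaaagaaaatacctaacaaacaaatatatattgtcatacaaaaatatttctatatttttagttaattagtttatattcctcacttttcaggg
The capitals in CAT1 are the core TTGAC of the W-box, the site of WRKY transcription factors, which lies on the opposite strand, 34 bases before the start, and so reads GTCAA here. LHT1, AAP1 and AAP2 had no match to this core in the window, AAP3, AAP4, AAP5 and CAT1 had 1 each, and AAP6 had 2, at 168 and 77 bases before the start. Of 27443 windows of the same length before protein-coding genes, 44.93% held the core. ACTCAT, an element known from the proline dehydrogenase gene, occurred in AAP3 alone among the 8, 60 bases before the start, and in 12.31% of all windows. The as-1 core TGACG matched none of the 8 and 18.58% of all windows. The G-box CACGTG matched none of the 8 and 6.49% of all windows, and the GCC box GCCGCC none of the 8 and 1.87%. The W-box and as-1 cores can overlap. A match describes letters in the window only, and for a gene with several transcripts the outermost start need not be the one in use.

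The 8 genes lie apart from each other on chromosomes 1, 4 and 5 of TAIR10.1. LHT1 spans chr5:16323567-16327382 and CAT1 chr4:11269985-11274007, both on the plus strand. AAP1, AAP3 and AAP5 lie on chromosome 1 at chr1:21676388-21680519, chr1:29074879-29077390 and chr1:16764392-16767685. AAP2, AAP4 and AAP6 lie on chromosome 5 at chr5:2866222-2869156, chr5:25550937-25553656 and chr5:20142430-20146690. The longest coding sequences ran from 1341 bases in LHT1 to 1785 in CAT1, and those of the AAP genes from 1401 to 1482. In pairwise alignment AAP2 and AAP4 were the most alike, with 82.23% of aligned bases identical, followed by AAP2 and AAP3 with 71.9% and AAP1 and AAP6 with 71.16%. The longest stretch that any pair of the 28 shared without a difference was 26 bases, in AAP2 and AAP4 and in AAP1 and AAP6. How reads that match several genes were assigned is not given in the sources used here.

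The libraries held 7717255 to 20740957 mapped reads, as recovered from the table, and 23 to 7618 reads stood behind each value of the 8 genes. Markers of phloem and xylem were present throughout, at summed levels of 99.2 to 218.7 RPKM over 4 phloem genes and 99.96 to 376.5 over 4 xylem genes. Root hair markers stayed at or below 1.30 RPKM summed over 3 genes and shoot apex markers at or below 3.06, with WUS at 0 to 0.0692 and CLV3 at 0 to 0.163. The 3 seed storage markers summed to 0.176 to 0.426 RPKM at 0 h, 0.912 to 4.796 at 1 h and 3.08 to 10.8 at 3 h, when most importers peaked, and to at most 0.724 later. Of these, SESA1 rose at 1 h and 3 h (1.44 and 2.42, SE 0.29). Their part in the importer levels was not tested. Photosynthetic markers summed to 1.67 to 9.19 RPKM in 16 libraries and to 109.2 in 12 h replicate 1, mostly RBCS1A (96.2 RPKM). Without that library the counts of importer genes called at 12 h against 0 h stayed at 5 higher and 1 lower. Deviations between libraries are otherwise given beside the gene they touch.

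LHT1 was near the bottom of the 8 before 3 h and at their top at 3 and 6 h. It stood at 6.14, 3.87 and 3.34 RPKM in the 0 h libraries, and at 9.39, 14.2 and 5.51 at 1 h, where the groups overlapped. At 3 h it stood at 537.2, 481.0 and 454.9 RPKM, and at 6 h at 499.3, 568.3 and 389.7. All of these lay far above the highest 1 h library, and the 3 h and 6 h groups overlapped. The 12 h libraries held 106.5, 98.5 and 89.1 RPKM, and the 24 h pair, which lay far apart, 97.9 and 57.7. Every library from 3 h on lay above every library at 0 and 1 h.

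In mean level LHT1 went from 4.45 ± 1.49 RPKM (SD, n = 3) at 0 h to 491.1 ± 42.1 at 3 h (n = 3), a ratio of 110.3. On the log2(RPKM + 1) scale the change from 0 h was 0.92 (SE 0.27) at 1 h, then 6.53 (SE 0.27) and 6.50 at the next time points, 4.21 after 12 h, and 3.84 (SE 0.31) after 24 h. Ordered by change, LHT1 ranked 16 of 19656 tested genes at 3 h, and the ranks at the later times were 23, 50 and 42. The step from 1 h to 3 h alone, 5.60 (SE 0.27), ranked 4 of all tested genes. From 6 h to 12 h the level fell by 2.28 (SE 0.27).

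**Figure D1:**
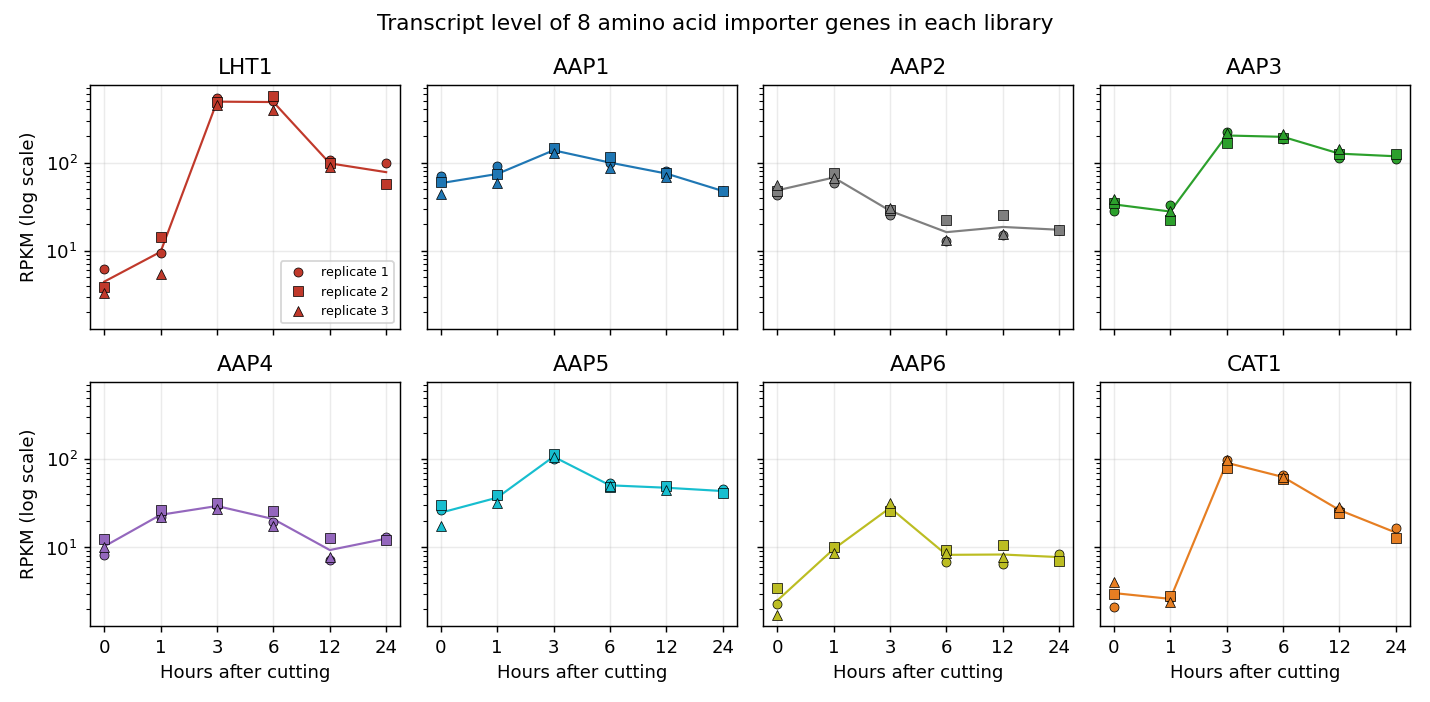
RPKM of the 8 importer genes on a log axis against hours after cutting (evenly spaced), with 1 point per library, its shape giving the replicate number, and a line through the means. LHT1, AAP3 and CAT1 step up between 1 h and 3 h, and AAP2 is lower from 3 h on.

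CAT1 overlapped with LHT1 at 0 h, lay below it at 1 h, and also stepped up between 1 h and 3 h. Its values were 2.12, 2.94 and 4.06 RPKM at 0 h, and 2.64, 2.79 and 2.40 at 1 h, inside the range of 0 h. They jumped to 97.5, 79.6 and 97.0 RPKM at 3 h, then declined through 66.1, 60.1 and 63.0 (6 h) and 26.3, 24.5 and 28.9 (12 h) to 16.7 and 12.8 (24 h). From 3 h on, each time point lay below the one before it without overlap, and all lay above 0 h. The change from 0 h was 4.54 (SE 0.14) at 3 h, a ratio of mean RPKM of 30.1, and 1.98 (SE 0.16) at 24 h. At 1 h it was -0.13 (SE 0.14), and its sign turned with median centring (0.13), with quantile normalization (0.15) and without 0 h replicate 3 (0.04). By size of change CAT1 ranked 111 of the tested genes at 3 h, and 12 in the step from 1 h to 3 h.

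AAP3 shared this step and then kept most of its level. It stood at 27.9, 34.3 and 38.4 RPKM at 0 h and at 33.0, 22.4 and 28.1 at 1 h, which overlapped. The 3 h libraries reached 222.8, 167.9 and 217.6 RPKM, and the 6 h libraries 185.8, 192.2 and 209.1. Later libraries held 112.8, 124.7 and 141.0 RPKM (12 h) and 110.7 and 125.0 (24 h), all above the highest 0 h library and overlapping each other. The log2 change from 0 h was 2.56 (SE 0.15) at 3 h and 1.79 (SE 0.16) at 24 h, with 2.52 and 1.89 between them. The level at 24 h was 3.51 times that at 0 h.

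AAP6, the lowest of the 8 at 0 h, rose earlier and peaked at 3 h alone. It stood at 2.31, 3.49 and 1.71 RPKM at 0 h, on 23 to 82 reads, and at 10.1, 10.1 and 8.59 at 1 h, above every 0 h library. At 3 h it reached 26.2, 26.1 and 32.3 RPKM. At 6 h it was back at 6.83, 9.31 and 8.59 RPKM, and it stayed there at 12 h (6.52, 10.5 and 7.88) and 24 h (8.48 and 7.06), still above 0 h. The log2 change was 1.63 (SE 0.18) at 1 h, 3.08 (SE 0.18) at 3 h and 1.35 to 1.42 afterwards. Its fall from 3 h to 6 h, by 1.66 (SE 0.18), was larger than that of any other member over that step.

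AAP5 had the same 3 h peak on a higher base. Values were 26.9, 30.0 and 17.5 RPKM at 0 h and 38.4, 39.8 and 32.0 at 1 h, which did not overlap. The 3 h libraries held 100.1, 115.7 and 105.7 RPKM, the 6 h libraries 53.3, 49.1 and 49.8. At 12 h (48.7, 49.8 and 44.4 RPKM) and 24 h (45.5 and 41.8) the level was close to that at 6 h and above all 0 h libraries. The log2 change was 2.10 (SE 0.14) at 3 h, a ratio of 4.32, and 0.83 (SE 0.16) at 24 h.

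AAP4, the closest relative of AAP2 among the 8, rose at 1 h and was back near its starting level at 12 h. From 8.27, 12.4 and 10.1 RPKM at 0 h it went to 21.9, 26.3 and 22.2 after 1 h, then to 29.2, 31.8 and 27.6 at 3 h. The 6 h libraries stood at 19.6, 25.9 and 17.5 RPKM, all above 0 h. At 12 h (7.29, 12.9 and 7.87 RPKM) and 24 h (13.1 and 12.1) the groups overlapped with 0 h. The log2 change was 1.13 (SE 0.18) at 1 h, followed by 1.45 and 0.96 at 3 and 6 h, then -0.15 (SE 0.18) and 0.29 (SE 0.20) at 12 and 24 h.

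AAP1, the most abundant of the 8 at 0 h, moved least. Its values were 71.0, 59.6 and 44.5 RPKM at 0 h and 90.5, 73.8 and 58.2 at 1 h, which overlapped. The 3 h libraries held 138.4, 145.0 and 129.6 RPKM, the 6 h libraries 99.4, 114.1 and 86.1, all above 0 h. AAP1 was within the 0 h range or overlapped with it afterwards, at 80.4, 75.4 and 69.3 RPKM (12 h) and 47.7 and 47.5 (24 h). The log2 change was 1.25 (SE 0.16) at 3 h and 0.78 at 6 h, but -0.26 (SE 0.18) after 24 h.

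AAP2 took the opposite course. It stood at 42.8, 47.2 and 55.2 RPKM at 0 h and was slightly higher at 1 h, at 58.9, 76.9 and 67.1. The 3 h libraries held less, 25.7, 29.2 and 30.1 RPKM, and the 6 h libraries less again, 13.0, 22.5 and 13.2. Values stayed low thereafter, with 15.01, 25.3 and 15.5 RPKM (12 h) and 17.3 and 17.2 (24 h). None of these groups overlapped with 0 h. The log2 change was 0.47 (SE 0.20) at 1 h but -0.75 (SE 0.20) at 3 h, and then -1.56, -1.37 and -1.43 (SE 0.23) in time order. The call at 1 h was lost in 13 alternatives, among them quantile normalization, a pseudocount of 0.1 and leaving out 0 h replicate 1 (log2 change 0.39). In the 6 h and the 12 h group, replicate 2 was the highest library for AAP2, AAP4 and AAP6 alike. The 4 phloem markers summed to 145.9 RPKM in 6 h replicate 2 and 132.9 in 12 h replicate 2, between the other libraries of the same time.

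The summed level of the phloem markers was lower from 3 h on than at 0 h, as was the level of AAP2. SEOR1, the most abundant of the 4 phloem markers at 0 h, had a mean of 123.5 RPKM at 0 h and 53.6 at 12 h. The means at 0 and 12 h were 12.3 and 6.70 RPKM for CALS7, 14.9 and 10.9 for APL, and 51.4 and 51.9 for SUC2. At 1 h SUC2 was called lower (-0.37, SE 0.16), with overlapping groups and a change near the median of all tested genes (-0.36). SEOR1, APL and CALS7 were not called at 1 h (0.07, -0.09 and -0.22). The sum of the 4 phloem markers was 184.2 to 211.7 RPKM at 0 h and 161.7 to 218.7 at 1 h. In time order from 3 h it was 150.3 to 179.5, 123.5 to 153.7, 99.2 to 137.1, then 110.3 to 144.3. Of these 4 genes 2, 2, 3 and 2 fell at 3, 6, 12 and 24 h, namely SEOR1 and CALS7 each time and APL at 12 h. Of all tested genes 39.3, 37.1, 27.8 and 23.2% were called lower at these times. None of the 4 was at 0 in all libraries of a time point. The 4 xylem markers summed to 345.6 to 354.2 RPKM at 0 h, 249.9 to 376.5 from 1 h to 12 h, and 99.96 to 120.0 at 24 h, when all 4 fell. The part of these markers in the importer levels was not tested. In such bulk samples fewer cells of a type and less RNA per cell cannot be told apart.

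**Figure D2:**
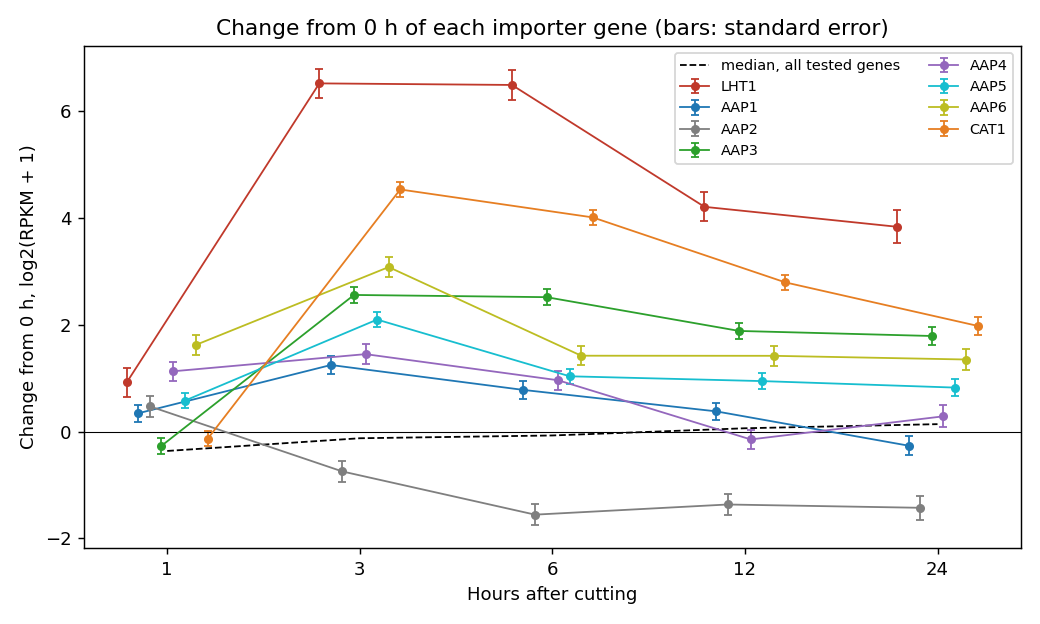
Change from 0 h in log2(RPKM + 1) for each importer gene, with bars of 1 SE, and the median of all 19656 tested genes as a dashed line. LHT1 reaches 6.53 and CAT1 4.54 at 3 h, while AAP2 lies below 0 from 3 h on.

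Counted over the 8 genes with limma (adjusted p under 0.05 over all tested genes), 5 rose and 0 fell at 1 h, where 18.2% of all tested genes were called higher and 54.7% lower. The count of falls was also 0 at an unadjusted p under 0.05 and with voom on recovered reads, but 2 (AAP3 and CAT1) without 0 h replicate 1 and 1 (AAP3) without 1 h replicate 1. At 3 h 7 rose and 1 fell, against 27.6% and 39.3% of all tested genes, and the same counts held at 6 h, against 30.2% and 37.1%. At 12 h 5 rose and 1 fell, with 34.4% higher and 27.8% lower among all genes. At 24 h again 5 rose and 1 fell, with 36.2% and 23.2% of all genes, and 2 fell (AAP1 and AAP2) without 0 h replicate 3. With all libraries the member that fell was AAP2 each time, and those not called were AAP1, AAP3 and CAT1 at 1 h and AAP1 and AAP4 at 12 and 24 h. The median change of the 8 genes was 0.53, 2.33, 1.23, 1.18 and 1.09 at 1, 3, 6, 12 and 24 h. That of all tested genes was -0.36, -0.12, -0.07, 0.06 and 0.14. All 5 comparisons share the same 0 h libraries.

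From one time point to the next after 1 h, the 8 genes were called as follows. Between 1 h and 3 h 6 rose (all but AAP2 and AAP4) and 1 fell, where 38% of all tested genes were called higher and 22.2% lower. From 3 h to 6 h 0 rose and 5 fell (AAP1, AAP2, AAP5, AAP6 and CAT1), where 19.2% of all genes were higher and 14.4% lower. From 6 h to 12 h 0 rose and 4 fell (LHT1, AAP3, AAP4 and CAT1), with 32.1% and 16.5% of all genes. From 12 h to 24 h 0 rose and 2 fell (AAP1 and CAT1), with 10.3% and 8.11% of all genes. The limma counts of 0 rises were also 0 at an unadjusted p under 0.05 and with voom, but 1 rise was called from 12 h to 24 h without 12 h replicate 2. Falls from 3 h to 6 h numbered 4 to 6 with 1 library left out, and 6 with voom. Those from 6 h to 12 h numbered 4 to 5 with 1 library left out, and 5 with voom. The falls of the last step were not stable to leaving out a library: 1 was called without 12 h replicate 1 or 24 h replicate 1, and 0 without 24 h replicate 2.

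The order of the 8 genes by level changed with these shifts. At 0 h it ran AAP1 (58.4 ± 13.3 RPKM), AAP2 (48.4 ± 6.27), AAP3 (33.5 ± 5.31), AAP5 (24.8 ± 6.49), AAP4 (10.3 ± 2.08), LHT1 (4.45 ± 1.49), CAT1 (3.04 ± 0.976) and AAP6 (2.50 ± 0.910), each SD over 3 libraries. Neighbours overlapped in AAP1 and AAP2, in AAP3 and AAP5, and among the last 3. At 3 h the order was LHT1, AAP3, AAP1, AAP5 and CAT1, none of which overlapped, followed by AAP4, AAP2 and AAP6, whose ranges of 25.7 to 32.3 RPKM did. At 12 h AAP3 (126.2 ± 14.2 RPKM, n = 3) led LHT1 (98.0 ± 8.72), and at 24 h AAP3 (117.8 ± 10.2, n = 2) led LHT1 (77.8 ± 28.4), without overlap at either time.

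The summed level of the 8 genes was 185.3 ± 9.71 RPKM at 0 h, 251.8 ± 23.9 at 1 h and 1116 ± 53.6 at 3 h (each n = 3). It declined to 940.5 ± 102.3 by 6 h, 409.6 ± 10.3 by 12 h, then 339.3 ± 25.6 (24 h, n = 2). The ranges of 3 h and later lay above both 0 h and 1 h without overlap. LHT1 made up 2.40% ± 0.764 of the sum at 0 h and 51.4% ± 4.23 at 6 h. AAP1 and AAP2 together held most of the sum at 0 h, with 31.4% ± 6.24 and 26.3% ± 4.66, and AAP2 held 1.71% ± 0.407 at 6 h. AAP3 had the largest share at 24 h, 35.0% ± 5.64. A transcript level per length is not a measure of transport capacity.

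**Figure D3:**
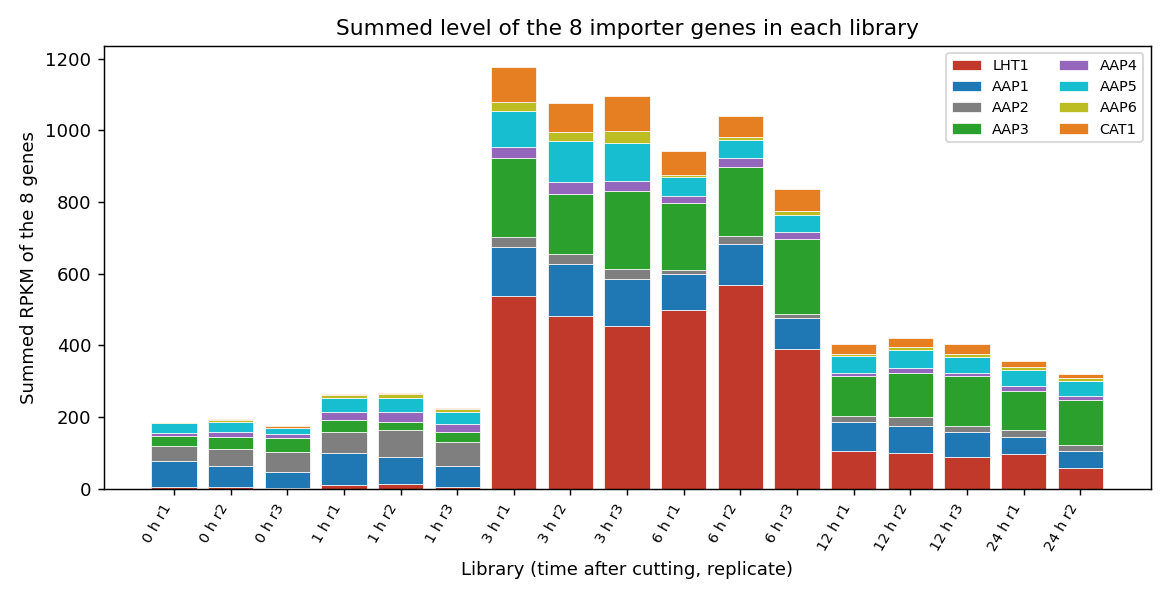
Summed RPKM of the 8 importer genes in each of the 17 libraries, stacked by gene. The 3 h and 6 h libraries reach 836.9 to 1177 RPKM, mostly LHT1 and AAP3, against 174.8 to 266.3 at 0 and 1 h.

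Among the 8, the courses most alike were those of AAP1 and AAP4, whose 5 changes from 0 h differed by a root mean square of 0.504 on the log2 scale, and AAP4 and AAP5 (0.666). LHT1 and AAP2 differed most (5.95). AAP2 and AAP4, the pair most alike in sequence, changed in opposite directions at 3 h (-0.75 and 1.45) and at 6 h (-1.56 and 0.96). By the same measure over 8434 genes with a symbol, LHT1 was nearest to ATBFRUCT1 (AT3G13790), a cell wall invertase gene, at 0.579, and to DXPS1 (AT3G21500) at 0.678, where the median gene differed by 4.92. ATBFRUCT1 changed by 1.81, 6.08, 6.03, 4.34 and 3.16 at 1, 3, 6, 12 and 24 h. CAT1 was nearest to YLS5 (AT2G38860, 0.463) and PMT5 (AT3G18830, 0.579), a polyol and monosaccharide transporter gene. AAP3 was nearest to PUP10 (0.225), of the purine permease family, and CYP83B1 (0.303), an enzyme of indole glucosinolate synthesis. AAP6 was nearest to IQD23 (0.282) and IGMT1 (0.332), a methyltransferase of indole glucosinolates, and AAP5 to FMO GS-OX5 (0.228) and PSK3 (0.238). AAP1 was nearest to TOPP3 (0.136) and CRK39 (0.154), AAP4 to DGK5 (0.19) and SHB1 (0.203), and AAP2 to KDR and LRX2 (0.222 each). This likeness is a description over 5 time points that share the 0 h libraries.

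The other amino acid transporter genes of the same families and their relatives, 25 loci, did not all follow. They were listed by family, CAT2 of the vacuolar membrane among them, and need not import into the cell. Of these, 16 passed the filter, and AAP8, LHT2, CAT5, CAT7 and 5 more stayed below it. In time order from 1 h, limma called 5, 5, 3, 2 and 2 of them higher, and 10, 7, 8, 5 and 9 lower, with median log2 changes of -0.65, 0.13, -0.21, -0.21 and -0.42. Over all tested genes 18.2, 27.6, 30.2, 34.4 and 36.2% were called higher, and 54.7, 39.3, 37.1, 27.8 and 23.2% lower. The medians of all tested genes were -0.36, -0.12, -0.07, 0.06 and 0.14. The counts are near these shares at several times, and nothing is read from them. PROT2, a proline and compatible solute importer, rose from 7.42 ± 1.12 to 68.3 ± 5.61 RPKM at 3 h (n = 3, 3.05, SE 0.09, adjusted p 3.48e-13 with limma). It was still higher at 24 h (0.99, SE 0.10, adjusted p 8.41e-07 with limma). LHT7, of the LHT1 family, rose from 0.345 ± 0.232 to 17.6 ± 1.33 RPKM at 1 h (3.80, SE 0.18). It was also higher at 3 and 6 h (3.59 and 1.83), and was not called at 12 or 24 h. The LHT7 libraries at 0, 12 and 24 h stayed at or below 0.702 RPKM, at 0 h on 2 to 10 reads. LHT7 thus passed the filter only through the libraries where it was high, and no p-value is given for it. AAP7 rose at 1 h, from 5.26 ± 1.41 to 19.8 ± 3.18 RPKM (1.75, SE 0.19), was still higher at 3 h (0.93), and was not called from 6 h on.

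Among these other amino acid transporter genes, the largest called falls were those of AT1G47670 at 1 and 3 h. From 6 h on they were those of CAT2, a cationic amino acid transporter of the vacuolar membrane. The level of CAT2, 264.8 ± 68.8 RPKM at 0 h, was down to 43.1 ± 3.21 by 3 h (-2.56, SE 0.16, adjusted p 1.23e-09 with limma), and to 36.2 ± 4.37 by 24 h (-2.81, SE 0.18). At 0 h CAT2 was thus above every one of the 8 importers in level per length, and at 3 h below 5 of them. AT1G47670, annotated as a transmembrane amino acid transporter family protein, was at 66.8 ± 3.75 RPKM at 0 h, 8.78 ± 0.919 by 3 h (-2.80, SE 0.12), but 64.2 ± 1.48 by 24 h, when it was no longer called. AT1G25530, with the same annotation, fell at 1 h (-1.38, SE 0.10) but was higher at every later time (0.65 at 12 h, 0.96 at 24 h). CAT3 was called lower at all 5 times, by -0.67 to -1.23, and so was CAT8, by -0.69 to -0.87.

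**Figure D4:**
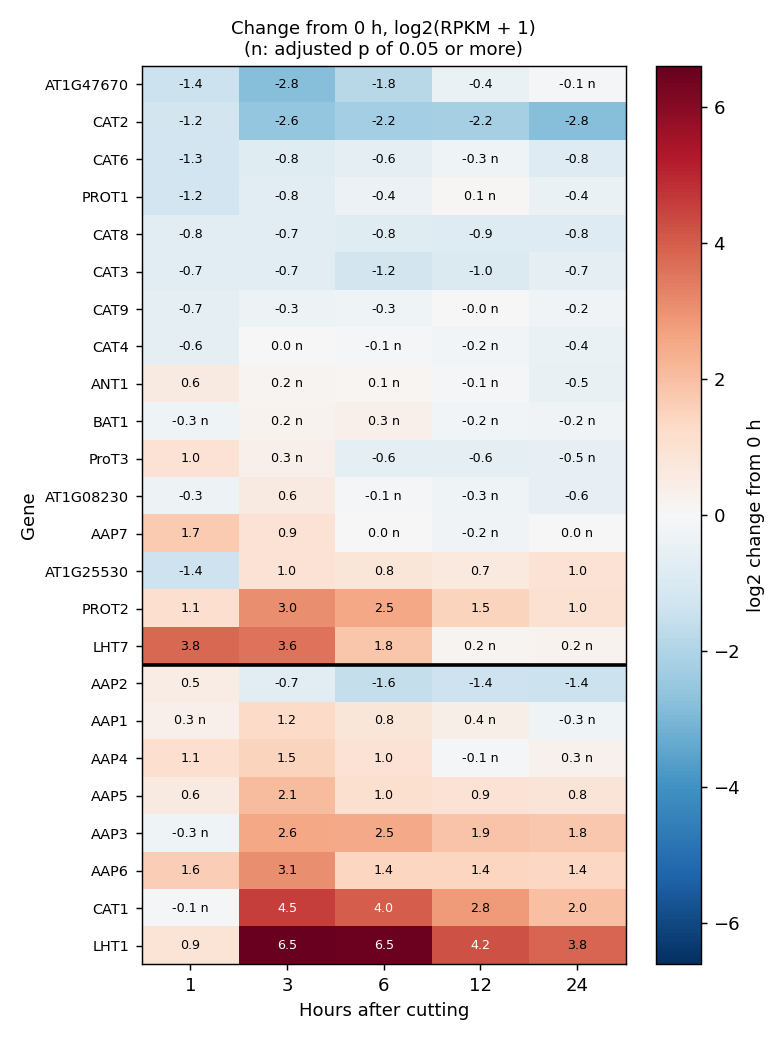
Change from 0 h in log2(RPKM + 1) at each time point. The 16 other amino acid transporter genes that were tested lie above the black line and the 8 described genes below it. Each block is ordered by the change at 3 h. Above the line PROT2 and LHT7 have the largest rises and CAT2 and AT1G47670 the largest falls.

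Importers of other reduced nitrogen were counted in the same way. Of 8 tested genes for ammonium and small peptide import, out of 9 listed, limma called 3, 5, 5, 4 and 4 higher in time order, and 3, 1, 1, 1 and 1 lower, with median log2 changes of -0.11, 1.58, 1.09, 0.58 and 0.69. Of all tested genes 18.2, 27.6, 30.2, 34.4 and 36.2% were called higher, and 54.7, 39.3, 37.1, 27.8 and 23.2% lower. AMT1;1, a high-affinity ammonium importer, went from 9.23 ± 3.42 to 151.9 ± 8.32 RPKM within 3 h (3.97, SE 0.23, adjusted p 9.36e-10 with limma) and stood at 60.2 ± 14.7 at 24 h. AMT2;1 (AMT2 in RefSeq) went from 11.6 ± 0.526 to 89.9 ± 7.48 RPKM over the same time (2.85, SE 0.09). PTR3, a peptide transporter gene, was higher from 3 h to 24 h, at 47.2 ± 7.48 RPKM at 6 h against 6.59 ± 1.51 at 0 h (2.67, SE 0.18). AMT1;3 fell at 1, 3 and 6 h (-0.78, -1.24 and -1.12, SE 0.33). Its level was low, with a mean of 2.26 RPKM at 0 h and 0.363 at 3 h, there on 4 to 6 reads. The other falls were PTR2 at 1 h (-0.75), PTR3 at 1 h (-0.67), and at 12 and 24 h PTR5 (-0.48 and -0.53). The level of PTR5 did not pass 1.93 RPKM in any library. PTR5 and the fall of PTR3 fall outside the naming rule and were added after their values were seen.

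Of 17 tested genes of amino acid assimilation and turnover, out of 18 listed, limma called 3, 6, 7, 7 and 10 higher in time order, and 8, 7, 7, 6 and 5 lower, with median log2 changes of -0.16, -0.18, -0.17, 0.28 and 0.71. These shares are near those of all tested genes for several times, for example 3 of 17 higher against 18.2% at 1 h and 8 of 17 lower against 54.7%, and nothing is read from them. GLN1;1, a cytosolic glutamine synthetase gene, went from 111.4 ± 6.43 to 582.6 ± 22.3 RPKM within 3 h (2.38, SE 0.07, adjusted p 1.24e-13 with limma). ASN1, the asparagine synthetase gene induced in darkness, fell from 28.5 ± 20.5 RPKM, a wide spread, to 1.45 ± 0.918 at 6 h (-3.32, SE 0.55), was called lower at every time from 3 h on, and stood at 0.344 ± 0.291 at 24 h (n = 2). ASN2 and ASN3, further asparagine synthetase genes, rose to 116.7 ± 7.85 and 24.9 ± 3.99 RPKM at 24 h (n = 2), from 40.9 ± 6.33 and 9.85 ± 0.869 at 0 h. Before that, ASN2 was lower at 1, 3 and 6 h (-0.650, -1.112 and -1.004), and ASN3 was lower at 1 h (-0.34) but higher from 3 h on. The proline dehydrogenase gene listed as ERD5 in RefSeq rose at 1 h (1.03, SE 0.27) but was lower at 6 and 12 h (-0.99 and -0.85). GDH1, a glutamate dehydrogenase gene, was lower at all 5 times, by -0.70 to -1.60. GDH2, of the same family, was higher at 1, 3 and 6 h (0.56, 0.53 and 0.25) but lower at 12 and 24 h (-0.32 and -0.79). P5CS2, of proline synthesis, was lower at all 5 times, by -0.69 to -1.26. GLN2, the plastid glutamine synthetase gene, was lower at 1, 3 and 6 h (-0.59, -1.77 and -1.22), not called at 12 h, and higher at 24 h (0.60). AT5G38710 was higher at all 5 times, by 4.05 (SE 0.17) at 1 h down to 1.02 at 24 h. It stood at 0 to 0.294 RPKM at 0 h, on 0 to 7 reads, and passed the filter only through the later libraries.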

How the data were processed

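Stranded mRNA libraries of 17 hypocotyl samples were analysed from 1 table of 28642 genes. The deposited values were read as RPKM from their steps and totals, since the header names no unit. The genome build is TAIR10 per the submitters' processing notes. Aligner, counter and annotation: not given in the sources used. Read numbers were recovered from the RPKM steps. They came out whole (tolerance 0.01 reads) for 24834 of 24834 genes above 0, with 4684 gene lengths equal to an annotated length. Library totals were 7717255 to 20740957 reads, highest in 0 h replicate 1 (20740957), and 3 reads on 1 kb equal 0.1446 to 0.3887 RPKM, counting error only.

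The 19656 genes that reached 1 RPKM in 2 or more libraries were fitted as log2(RPKM + 1) with limma 3.58.1 in R 4.3.3, with 6 time point levels, trend and robust moderation. Benjamini-Hochberg adjustment ran over all tested genes, with calls at 0.05, and p-values cover just the scatter among replicates, which may be technical. Log2 changes understate the ratio of low genes. The fit was tested on simulated data. Replicates differed by more than sampling noise. Coding sequences were aligned with Biopython 1.88 (match 1, mismatch -1, gap opening -4, extension -0.5). TAIR10.1 served for gene names (71 of 80 listed loci have a symbol), positions and sequences.

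The members, lists, markers and motifs were chosen with earlier results of these data known. Other genes were named by rule: per list and comparison with 0 h, the 2 largest rises and 2 largest falls among called genes with a mean log2 value of at least 1, and per member the 2 nearest genes by root mean square difference. Alternatives changed the pseudocount, filter, scaling, moderation, replicate block and libraries, or used voom on recovered reads.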

Additional observations from a re-analysis of the deposited data

How the results depend on the processing

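Directions and calls of the 8 importer genes at 3 h and 6 h held under the alternatives run. Of 1040 recomputed changes of these genes from 0 h, 1007 kept direction and call, 13 lost and 17 gained a call, and 3 turned sign (CAT1 at 1 h, with 0.13 under median centring, 0.15 under quantile normalization and 0.0425 without 0 h replicate 3, its leave-one-out values running from -0.3074 to 0.0425). All gains and losses were in AAP1, AAP2, AAP3 and CAT1 at 1 h or AAP1 at 12 and 24 h. Leaving out 1 library gave 0 to 2 falls at 1 h (2 without 0 h replicate 1, AAP3 and CAT1, and 1 without 1 h replicate 1), 1 to 2 falls at 24 h against 0 h (2 without 0 h replicate 3), and 0 to 2 falls and 0 to 1 rises at 24 h against 12 h (1 rise without 12 h replicate 2). A fit that loses a 24 h library assumes that the other varies like the remaining groups. With the replicate number as a block, 2 importer genes fell at 24 h. Deviations of same-numbered libraries correlated at -0.17 to 0.34, with 16 of 40 pairs over 0.1. From 0 h to 12 h the only such pair below 0 was replicate 1 at 3 h and 12 h (-0.04). Replicate 3 pairs of those times ran from 0.06 to 0.34. The lowest value, -0.17, involved 24 h, where the deviations of 2 libraries mirror each other. The replicate 3 libraries up to 12 h thus shared part of their deviation. Several pairs of the other numbers were near 0, such as replicate 1 at 0 h and 3 h (0.0075) and replicate 2 at 1 h and 12 h (0.0031). Differently numbered pairs up to 12 h reached 0.17 (0 h replicate 2 with 1 h replicate 1). What the number stands for is not stated, and the main fit leaves it out. For the other amino acid transporters, no filter gave 4 rises at 24 h, and median centring and quantile normalization gave 8 falls each at 12 h. For ammonium and peptide importers, median centring gave 1, 2 and 3 falls at 1, 12 and 24 h, quantile normalization 1 and 2 at 1 and 12 h, the filter at an RPKM of 5 gave 0 falls at 3, 6, 12 and 24 h since it leaves AMT1;3 and PTR5 out, and leaving out 1 library gave 0 to 1 falls at 12 h and at 24 h. For assimilation and turnover, median centring gave 3 falls at 1 h. The cause was not tested elsewhere. Depth is thinnest for AAP6 at 0 h (23 to 82 reads), CAT1 at 1 h (42 to 49) and LHT1 at 0 h (45 to 218).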
